A study of Rattus norvegicus and Mus musculus with 251 samples.

Results

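The Period genes Per1, Per2 and Per3, the cryptochrome genes Cry1 and Cry2, and Ciart encode the negative limb of the circadian clock. They were taken by symbol from the mouse gene count table, in which all 6 were found among 46078 genes, and they were followed across 2 brain regions and 4 treatments. The samples were punches of prefrontal cortex (PFC) and nucleus accumbens (NAc), 0.5 mm wide, from male and female C57BL6J mice that drank either saline or a morphine solution. The saline group (Sal) is the control. The other groups were collected during chronic morphine (Chronic mor), 24 h after morphine (Mor + 24h) or 2 weeks after it (Mor + 2W), and no allele or further agent is named for any group. PFC held 6 saline, 8 chronic morphine, 9 24 h and 7 2 week libraries, and NAc held 7, 8, 9 and 8, so that 30 PFC and 32 NAc libraries were analysed. The age of the mice and the hour of collection are not given in the sources used here. Nothing in the labels states that libraries of a group come from separate animals, so the p-values measure the spread between these libraries.

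In the clock of nearly every cell, the activators CLOCK and BMAL1 (encoded by Arntl) drive transcription of the Period and cryptochrome genes, and the PER and CRY proteins return to the nucleus and block those activators. CIART, also called CHRONO, is a further repressor that binds BMAL1. Per1, and less strongly Per2, also has a second input: calcium and cAMP signalling through CREB induces it within minutes in stimulated neurons, as it does the immediate early gene Fos, and the glucocorticoid receptor acts on it too. A change in Per1 RNA can therefore go with the hour, with neuronal activity or with stress hormone. For that reason each library's Fos was used as a measure of recent activity, and the log2 difference between Dbp and Arntl as a proxy for the hour, because Dbp, a direct target of CLOCK and BMAL1, and Arntl peak at opposite times of day.

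Libraries held 5182601 to 41532464 gene counts in PFC (median 29999922) and 22387525 to 43963295 in NAc (median 32159518). The PFC library of number 10 (Mor + 2W) stood apart, with the lowest total, 10563 genes with a count, and 21.1% of its reads not aligned. It had 0 counts of Per2 and Per3, which allows up to 0.579 CPM of each (CPM is the library's count scaled to its total). Number 27 (Chronic mor) is labelled female, but its libraries held a Y-linked gene and at most 1.03 CPM of Xist, and the NAc library of number 28, labelled male, held 18.3 CPM of Xist. Results are given with these libraries, and again without the PFC library of number 10 and both of number 27 where that changed a call; number 28 was kept throughout. The samples are labelled as neurons, yet the summed level of 5 oligodendrocyte markers was 2869 to 12811 CPM, so the punches held glia too. The 6 cortical projection neuron markers summed to 1737 to 4289 CPM in PFC and to at most 658 CPM in NAc. The 6 striatal projection neuron markers summed to 114.98 to 266 CPM in PFC and to 150 to 5090 CPM in NAc, a wide range that touches the NAc results. Libraries of numbers 1 to 3 and 8 to 17 were also near 0 for the predicted gene Gm10263, which the remaining numbers expressed, and what divides these numbers is not given in the labels. All chronic morphine libraries lie in the expressing set and all 2 week libraries in the other.

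On the GRCm38 build, Per1 (ENSMUSG00000020893) lies on chromosome 11 at 69095217 to 69109960. Per2 (ENSMUSG00000055866) lies on chromosome 1 at 91415982 to 91459324, and Per3 (ENSMUSG00000028957) on chromosome 4 at 151003652 to 151044665. Cry1 (ENSMUSG00000020038) lies on chromosome 10 at 85131700 to 85185064, and Cry2 (ENSMUSG00000068742) on chromosome 2 at 92403646 to 92434043. Ciart (ENSMUSG00000038550), the shortest, lies on chromosome 3 at 95878503 to 95882251. All 6 are annotated as protein-coding genes, and counts cover their exons. Per3 overlaps Camta1 on the same strand, and Cry2 and Ciart overlap D930015M05Rik and C920021L13Rik, which lie on the opposite strand. Whether the authors' counting used strand is not given in the sources used here, so the counts of Per3, Cry2 and Ciart are less certain.

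In saline PFC, Per1 and Cry2 were the most abundant of the 6 repressors per length and Per3 the least. RPKM values (CPM per kilobase of exon) are used here, since they alone allow a comparison between genes. Per1 had a median of 40.2 RPKM in saline PFC, with a range of 34.5 to 57.8, and Cry2 a median of 31.3 RPKM, with a range of 28.7 to 36.2. These ranges overlapped. The medians of Ciart (9.61 RPKM), Per2 (9.42 RPKM) and Cry1 (8.12 RPKM) lay together with overlapping ranges. Per3 was lowest at 3.51 RPKM, and its highest saline PFC library lay below the lowest library of any other repressor.

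**Figure D1:**
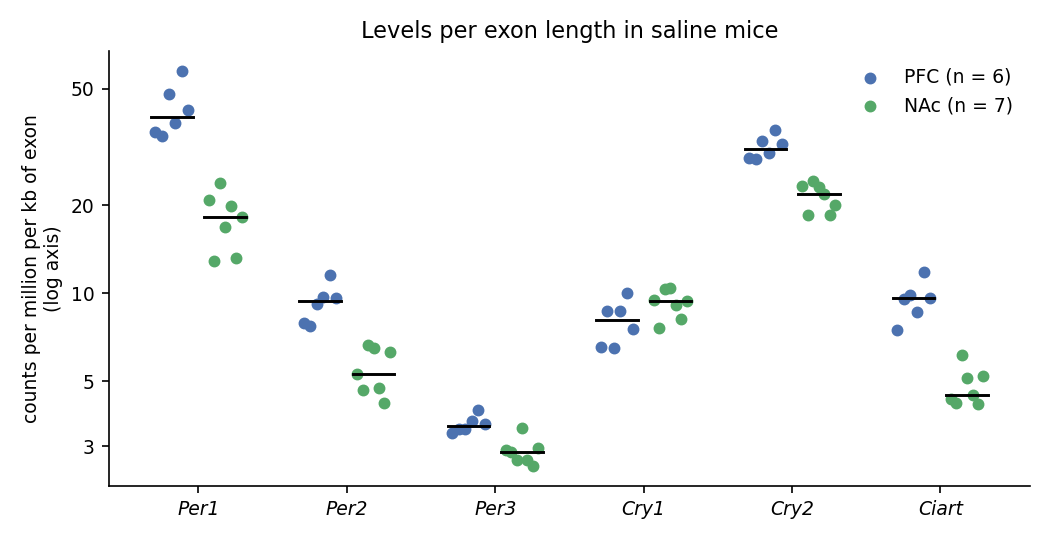
Levels of the 6 repressors in saline libraries, in RPKM on a log axis, with PFC (blue) and NAc (green) side by side. Points are libraries and black bars are medians. Per1 and Cry2 sit above the other 4 genes in both regions, and Per1, Cry2 and Ciart are lower in NAc.

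In saline NAc the order of the first and second genes was exchanged. Cry2 had a median of 21.8 RPKM and Per1 of 18.3 RPKM, with overlapping ranges, followed by Cry1 at 9.41, Per2 at 5.32, Ciart at 4.50 and Per3 at 2.87 RPKM. Between the regions, edgeR called 3 of the 6 lower in NAc than in PFC at an adjusted p under 0.05, where 35.8% of all genes tested were called in either direction. Per1 was 2.35-fold lower in NAc (log2 difference -1.23 ± 0.20 SE, adjusted p = 1.54e-06), Ciart 1.96-fold lower (-0.97 ± 0.17, adjusted p = 8.56e-06) and Cry2 1.47-fold lower (-0.56 ± 0.10, adjusted p = 2.02e-05). Per2 (-0.75 ± 0.31, adjusted p = 0.0588), Per3 (-0.31 ± 0.25, adjusted p = 0.358) and Cry1 (0.21 ± 0.15, adjusted p = 0.300) did not pass. Without the 3 libraries of numbers 10 and 27, Per2 and Per3 passed as well, with adjusted p of 0.0022 and 0.0271. In that fit 5 of the 6 were called, where 41.6% of 19757 genes were called. All 12 genes of a list of activity-induced genes were also lower in saline NAc, Fos by -2.30 ± 0.21 on the log2 scale (adjusted p = 2.6e-13).

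Under chronic morphine Per1 fell in PFC, and the other 5 repressors had no called difference. In saline PFC, Per1 ran from 194 to 325 CPM with a median of 226. In chronic morphine PFC it ran from 64.3 to 184.7 CPM with a median of 96.8, and all 8 libraries lay below the lowest saline library. Per1 fell 2.16-fold (log2 fold change -1.11 ± 0.14 SE, edgeR adjusted p = 2.35e-05). Of the 6 repressors 1 was called, where 0.417% of the 17966 genes tested in PFC were called. These are tissue punches, so fewer cells expressing Per1 and less Per1 RNA per cell cannot be told apart. Of 44 cell type markers, 42 passed the filter on low counts in PFC, and edgeR called 0 of them in this contrast, with 5 at an unadjusted p under 0.05. DESeq2 called 0 as well.

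In the PFC groups collected after morphine, Per1 lay between the chronic morphine and saline levels, and it was higher at 2 weeks than under chronic morphine. At 24 h the PFC libraries ran from 107.1 to 208 CPM with a median of 163.2, and 6 of 9 lay below the lowest saline library. At 2 weeks they ran from 177.5 to 240 CPM with a median of 206, and 1 of 7, the library of number 10, lay below it. The 2 week libraries did not all clear the chronic morphine range, whose highest library reached 184.7 CPM. Per1 was 1.89-fold higher at 2 weeks than under chronic morphine (log2 0.92 ± 0.14, edgeR adjusted p = 2.13e-04), again the single repressor called, where 0.813% of genes were. This comparison shares the chronic morphine libraries with the one above. All 4 choroid plexus markers were lower at 2 weeks (median log2 -2.75, with 0 called by edgeR or DESeq2 and 4 at an unadjusted p under 0.05), and of 42 cell type markers 7 had an unadjusted p under 0.05. The choroid plexus sum was 3426 CPM in the chronic morphine library of number 31 and at most 16.5 CPM in the other 7. Without that library Per1 was 0.93 higher at 2 weeks (edgeR adjusted p = 3.89e-04) and -1.12 against saline under chronic morphine (adjusted p = 5.82e-05). Against saline, the 24 h difference was -0.53 ± 0.14 (adjusted p = 0.252) and the 2 week difference -0.19 ± 0.15 (adjusted p = 0.949), and neither passed.

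**Figure D2:**
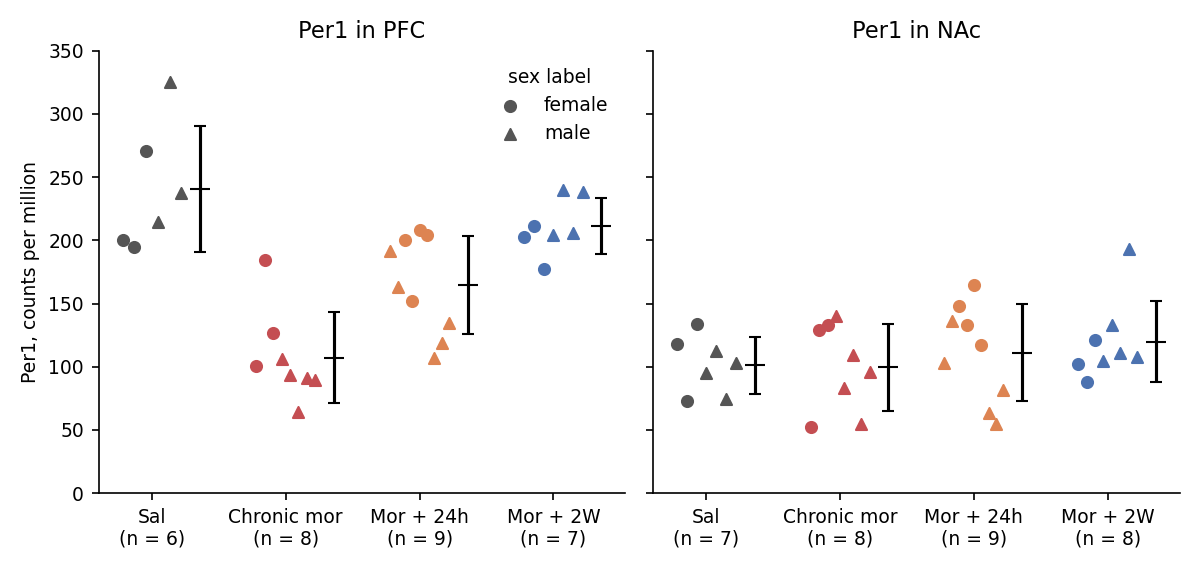
Per1 in every library, in CPM, by treatment, with PFC on the left and NAc on the right. Circles are libraries labelled female, triangles are libraries labelled male, and the black mark with its bar is the mean ± SD. The 8 chronic morphine PFC libraries (64.3 to 184.7 CPM) lie below all 6 saline PFC libraries, while the NAc groups overlap.

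Between chronic morphine and 24 h in PFC, Per1 differed by 0.58 ± 0.13 on the log2 scale, which edgeR did not call (adjusted p = 0.118). DESeq2 called it (adjusted p = 0.0172), and edgeR called it without the chronic morphine library of number 26 (0.72, adjusted p = 0.0225). That library had the highest Per1 of its group. edgeR called 0 of the 6 repressors in this comparison, where 0.0278% of genes were called. It also called 0 of 6 at 24 h against saline (0.0779% of genes called) and 0 of 6 at 2 weeks against saline (0.00557% of genes called). At an unadjusted p under 0.05 there were 1, 4 and 0 repressors in these 3 comparisons. Of the 17966 genes tested, 906, 545 and 902 met that level. DESeq2 called none in either saline comparison.

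Ciart, the BMAL1-binding repressor, had the next largest difference from saline under chronic morphine in PFC. It ran from 16.9 to 26.8 CPM in saline (median 21.7) and from 7.63 to 21.9 CPM under chronic morphine (median 14.6), and 6 of 8 libraries lay below the lowest saline library. The groups overlapped, and the difference of -0.49 ± 0.15 did not pass (adjusted p = 0.258). Its medians were 16.4 CPM at 24 h and 16.9 CPM at 2 weeks, with 5 of 9 and 3 of 7 libraries below the lowest saline library.

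The other Period and cryptochrome genes showed no called difference in PFC. Per2, the Period protein whose loss most disturbs behavioural rhythms, ran from 45.4 to 67.6 CPM in saline (median 55.2) and from 31.8 to 85 CPM under chronic morphine (median 53.1). The chronic range enclosed the saline range, with 2 libraries below it and 2 above, and the difference was 0.08 ± 0.36 (adjusted p = 0.988). Without numbers 10 and 27, and so without the library at 0, the same difference was 0.07 ± 0.16. Per3, the Period protein least needed for the core rhythm, had medians of 33.8 CPM in saline and 36.97 CPM under chronic morphine (0.11 ± 0.33, adjusted p = 0.98).

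Cry1, the cryptochrome whose loss shortens the period of the clock, had medians of 27.1, 28.4, 30.9 and 32.3 CPM in saline, chronic morphine, 24 h and 2 week PFC. Cry2, whose loss lengthens that period, had medians of 198, 231, 239 and 230 CPM in the same order. All of these groups overlapped with saline. The largest fitted differences from saline were those at 24 h, 0.26 ± 0.12 for Cry1 and 0.23 ± 0.09 for Cry2, and both had an adjusted p of 1. Across the treatments in PFC, Per1 was the one repressor with a called difference.

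**Figure D3:**
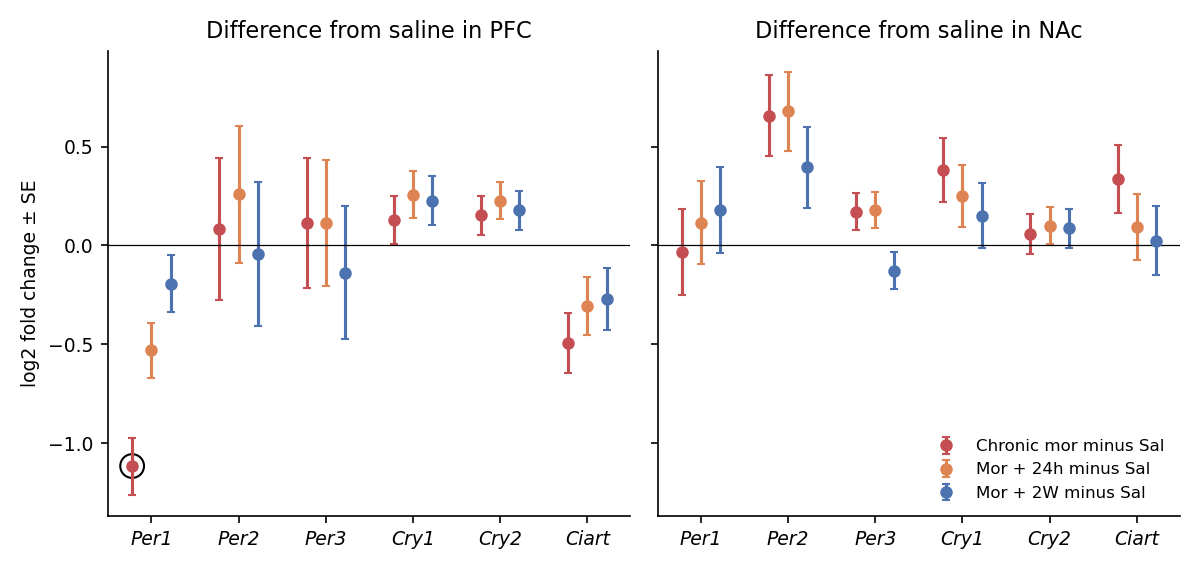
Fitted log2 fold changes of the 6 repressors for each treatment against saline in PFC and NAc. Points are edgeR estimates, bars are SE, and a black ring marks an adjusted p under 0.05. Among the repressors the ring appears on Per1 in PFC under chronic morphine, at -1.11, and on no other point.

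The rest of the clock gave few calls in PFC. Of 20 other clock genes, 2 fell under chronic morphine and none rose: Nfil3, a repressor of D-box genes that is also activity-induced, by -1.10 ± 0.13 (adjusted p = 6.73e-06), and Bhlhe40, a repressor that competes at E-boxes and is also induced by stimulation, by -0.53 ± 0.12 (adjusted p = 0.0344). The median of the 20 was 0.01 on the log2 scale, as was that of all genes tested. The same genes were the 2 called higher at 2 weeks than under chronic morphine, Nfil3 by 1.06 and Bhlhe40 by 0.66. Dbp (0.16 ± 0.12, adjusted p = 0.848) and Arntl (0.06 ± 0.14, adjusted p = 0.975) did not pass under chronic morphine.

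Most of the activity-induced genes fell too. Of 12 such genes, 10 fell in PFC under chronic morphine and none rose, with a median of -1.72. Fos fell 4.50-fold, from a range of 71.6 to 169.2 CPM in saline to 18.4 to 36.6 CPM (-2.17 ± 0.19, adjusted p = 7.25e-08), and the groups did not overlap. At 24 h, 8 of the 12 were lower than saline, Fos by -1.37 ± 0.18 (adjusted p = 7.34e-05), and at 2 weeks edgeR and DESeq2 called 0, with 0 at an unadjusted p under 0.05. Of 10 glucocorticoid-induced genes, which track the hormone input to Per1, edgeR called 0 in the 3 PFC comparisons with saline, with 6, 4 and 3 at an unadjusted p under 0.05 under chronic morphine, at 24 h and at 2 weeks. DESeq2 called 0, 0 and 1 of them. Their median under chronic morphine was 0.09, which joins both directions, with 6 of the 10 higher than saline and 4 lower. Of all 17966 genes, 1421, 545 and 902 had an unadjusted p under 0.05 by edgeR in the same 3 comparisons. Whether the hormone input changed was not tested.

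Per1 followed Fos from library to library within the PFC groups, each of which joined both sexes. Within each group Per1 and Fos were compared as log2 CPM, which gave 8 relations over the 2 regions. In PFC, Pearson's r was 0.77 in saline (n = 6, exact permutation p = 0.0653, adjusted 0.117), 0.88 under chronic morphine (n = 8, exact permutation p = 0.00578, adjusted 0.0231), 0.91 at 24 h (n = 9, exact permutation p = 2.9e-04, adjusted 0.00231) and 0.85 at 2 weeks (n = 7, exact permutation p = 0.0151, adjusted 0.0402). Spearman's rho was 0.71, 0.67, 0.88 and 0.82 in the same order, with exact permutation p of 0.136, 0.0831, 0.00308 and 0.0341, of which the third passed after adjustment (0.0246). All 4 were positive.

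The strength of these relations rested in part on a few libraries. In saline, r was 0.36 without number 6. Under chronic morphine, r was 0.32 without the 2 libraries farthest from the median Fos (n = 6, exact permutation p = 0.553), so that relation rests on them. One of those is number 26, which had the highest Fos and Per1 of the group. At 24 h, r was 0.81 without the 2 farthest libraries (n = 7, exact permutation p = 0.0391). Numbers 22, 23 and 24 were low in both genes, and without them r at 24 h was 0.64 (n = 6, exact permutation p = 0.213).

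**Figure D4:**
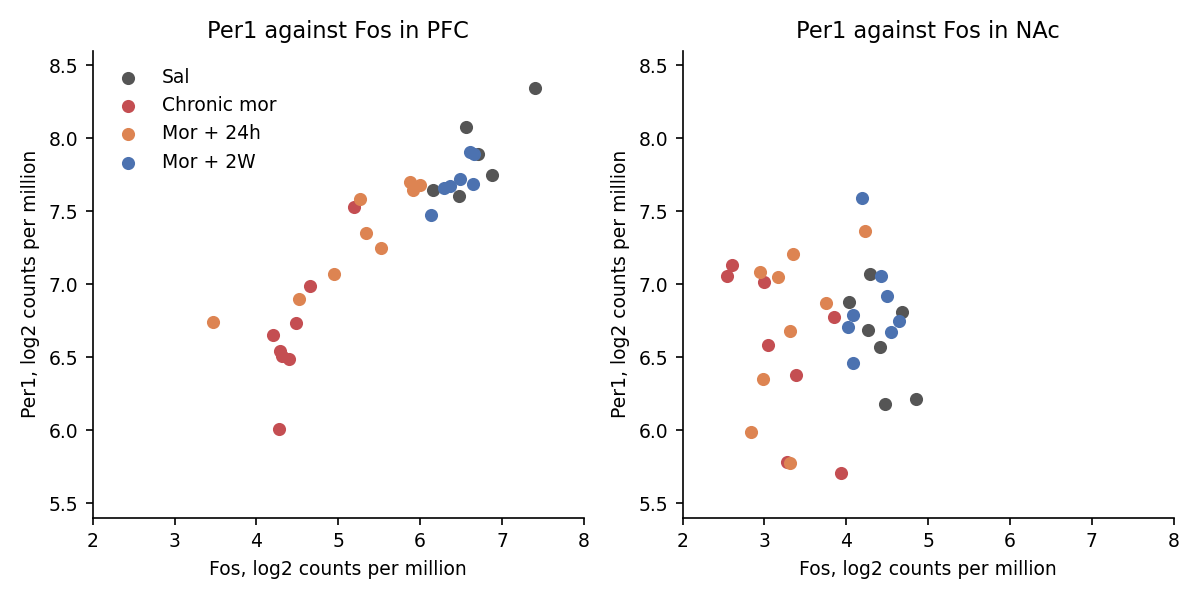
Per1 against Fos in each library, both as log2 CPM, in PFC (left) and NAc (right), coloured by treatment. In PFC the points run upward within every group, with r from 0.77 to 0.91. In NAc they do not, with r from -0.67 to 0.50.

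Pooled over PFC after each group's mean was removed, Per1 and Fos gave r = 0.79 (n = 30, permutation p = 1e-05, the smallest that 100000 resamples give, adjusted p = 1.2e-04) and rho = 0.80 (adjusted p = 1.2e-04). Without the 2 farthest libraries r was 0.81. This was 1 of 24 relations, for 6 repressors against Fos and the hour proxy in each region. With the hour proxy held constant the partial r of Per1 and Fos was 0.79, and with the summed cortical markers held constant it was 0.78. Per1 against the hour proxy gave r = 0.20 in PFC (n = 30, permutation p = 0.295, adjusted 0.416; rho = 0.18) and 0.26 without the 2 farthest libraries. This pooled value joins groups of opposite sign. Within groups r with the hour proxy was 0.49 in saline (n = 6, rho = 0.43), 0.43 under chronic morphine (n = 8, rho = 0.60) and 0.48 at 24 h (n = 9, rho = 0.65), with exact permutation p from 0.201 to 0.310, and r without the 2 farthest libraries was 0.82, 0.45 and 0.47. At 2 weeks it was -0.88 (n = 7, rho = -0.79, exact permutation p = 0.0125), -0.78 without the 2 farthest libraries and -0.76 without number 10 (n = 6, exact permutation p = 0.0708). Adjusted over the 8 groups of both regions, none passed (0.0833 at 2 weeks).

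The other repressors in PFC also followed Fos, except Per3. Removing group means, r with Fos was 0.58 for Cry1 (adjusted p = 0.00432, rho = 0.64), 0.58 for Cry2 (adjusted p = 0.00432, rho = 0.58) and 0.55 for Ciart (adjusted p = 0.00432, rho = 0.60), over 30 libraries by permutation. Without the 2 farthest libraries these were 0.45, 0.48 and 0.54. Per2 gave r = 0.23 but rho = 0.77 (adjusted p = 1.2e-04 for both), because of its library at 0, and r = 0.61 without numbers 10 and 27 (n = 28). Per3 gave r = 0.14 (adjusted p = 0.0789, rho = 0.35). Cry2 moved with the cortical marker sum as well (r = 0.76, rho = 0.75, permutation adjusted p = 9e-05; 0.78 without the 2 farthest libraries), and its partial r with Fos given that sum was 0.58.

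Ciart was the one repressor in PFC that also followed the hour proxy. Its r with the difference of Dbp and Arntl was 0.64 (n = 30, permutation p = 2.5e-04, adjusted 0.002, rho = 0.54), and 0.57 without the 2 farthest libraries. Its partial r was 0.67 for the hour proxy given Fos and 0.58 for Fos given the hour proxy. When treatment-by-sex means were removed in place of treatment means, 3 of the 24 relations passed in place of 10, all with Fos in PFC: Per1 with r = 0.77, Per2 with r = 0.20 and Ciart with r = 0.43.

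The Per1 call in PFC was lost with Fos as a covariate and kept with the hour proxy as a covariate. The loss was not particular to Per1: with Fos in the model edgeR called 0 of 17966 genes under chronic morphine, in place of 75, with 702 at an unadjusted p under 0.05, and with the hour proxy it called 89. With the hour proxy in the edgeR model, Per1 under chronic morphine was -1.11 ± 0.15 against saline (adjusted p = 3.34e-05). With Fos in the model it was 0.07 ± 0.23 (adjusted p = 1), and with both it was 0.07 ± 0.23. With the cortical marker sum it was -1.18 ± 0.14 (adjusted p = 2.96e-06). Since chronic morphine and saline libraries did not overlap in Fos, the part of the Per1 difference that goes with Fos and the part that goes with treatment cannot be told apart within this contrast. The 2 week against chronic morphine difference was -0.10 with Fos in the model (adjusted p = 0.961), where 0 of 17966 genes were called in place of 0.813% of them, with 1185 at an unadjusted p under 0.05. No time of death is given, so the hour proxy is the measure of the hour used here.

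The division of the libraries by Gm10263 touched the same result. With that division as a covariate, Per1 under chronic morphine was -0.83 ± 0.17 and the call was lost (adjusted p = 0.0671), and the 2 week against chronic morphine difference was 0.35 (adjusted p = 1). In these fits edgeR called 0.0612% and 0% of all genes in place of 0.417% and 0.813%, with 573 and 484 at an unadjusted p under 0.05. In that second contrast the division and the treatment cannot be told apart, and among females the same holds for the first. Within a treatment and sex, the division varied only among the 24 h males, numbers 16 and 17 against 22, 23 and 24. The size of the adjustment rests on those libraries, so the lost call does not show what part of the Per1 difference goes with the division. All male saline and male chronic morphine libraries in PFC are on the same side of it. Among them Per1 differed from saline by -1.54 on the log2 scale under chronic morphine (3 against 5 libraries, two-sided exact permutation p = 0.0179, the smallest that the 56 splits allow).

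Genes were ranked by the correlation of their library deviations with those of Per1 in PFC, over the 28 libraries other than numbers 10 and 27 and 13011 genes. The nearest were Midn (r = 0.86), a nuclear protein gene induced by stimulation, Sik1 (0.83), a CREB-induced kinase, Nr4a1 (0.81), an immediate early nuclear receptor, Fos (0.79) and Spry4 (0.78), a feedback inhibitor of receptor tyrosine kinase signalling. Dbp ranked 1514 (r = 0.31). Over all 30 libraries the order was Midn, Sik1, Fos, Nr4a1 and Gpr3. The genes nearest Per2 were Tet3, Sbno1 and Pcgf3 (r = 0.81 to 0.83), those nearest Per3 were Khdc4, Ercc6 and Tub (0.81 to 0.84), and those nearest Cry1 were Pdia4, Hspa5 and Slc2a3 (0.73 to 0.76). Rhobtb2, Cyp46a1 and Cx3cl1 were nearest Cry2 (0.89 to 0.92), and Siah2, Azin2 and Gadd45b nearest Ciart (0.72 to 0.76), for which Dbp ranked 7 (0.69). These ranks describe shared library variation, including what depth and tissue composition contribute to it.

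In NAc, edgeR called no Per1 difference between treatments. It ran from 72.6 to 134.1 CPM in saline (median 103.04), from 52.2 to 140.3 CPM under chronic morphine (median 102.6), from 54.8 to 165.1 CPM at 24 h (median 117.3) and from 88.2 to 193 CPM at 2 weeks (median 109.05). All groups overlapped. Under chronic morphine the difference from saline was -0.03 ± 0.22 (edgeR adjusted p = 0.967), although Fos fell in NAc too, from 16.3 to 28.7 CPM in saline to 5.79 to 15.3 CPM (-1.15 ± 0.19, adjusted p = 0.00217). At 24 h and 2 weeks the Per1 differences from saline were 0.12 ± 0.21 and 0.18 ± 0.22. With 2 surrogate variables in the edgeR model Per1 was called lower under chronic morphine (-0.29, adjusted p = 0.0128), and higher at 2 weeks than under chronic morphine (0.34, adjusted p = 0.00111).

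Per2 had the largest difference from saline among the repressors in NAc. It ran from 24.7 to 39.1 CPM in saline (median 31.1), from 28.2 to 74.4 CPM under chronic morphine (median 51.98), from 28.5 to 70.9 CPM at 24 h (median 53.4) and from 27.4 to 74.1 CPM at 2 weeks (median 46.1). No library of the 3 morphine groups lay below the lowest saline library, and 6 of 8, 7 of 9 and 6 of 8 lay above the highest. The log2 difference was 0.66 ± 0.21 under chronic morphine (edgeR adjusted p = 0.1), 0.68 ± 0.20 at 24 h (adjusted p = 0.176) and 0.40 ± 0.21 at 2 weeks (adjusted p = 0.809). None passed.

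DESeq2 called Per2 in NAc under chronic morphine (adjusted p = 0.0326) and at 24 h (adjusted p = 0.0482), and edgeR with 2 surrogate variables called it in both as well (0.00979 and 0.0191). edgeR also called it under chronic morphine without the chronic morphine library of number 25 (0.82, adjusted p = 0.0247). The Per2 calls thus differ between tools and settings. Over all genes DESeq2 called 3.74% and 0.908% in these comparisons and the surrogate variable fit 4.29% and 0.99%, in place of 1.69% and 0.163%. All 6 striatal projection neuron markers were also higher than saline in each of the 3 comparisons, with medians of 0.55, 0.33 and 0.41 on the log2 scale, and edgeR and DESeq2 called 0 of them, with 0 at an unadjusted p under 0.05. With the striatal marker sum in the edgeR model 0 repressors were called in the first and second comparison. That fit called 3.61% and 0.375% of all genes. The edgeR fit without the sum also called 0 repressors there, so this count does not show what part of the Per2 difference goes with the sum. These 3 comparisons share the 7 saline libraries, so their common direction is not independent.

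Cry1, Ciart and Per3 in NAc had medians of 31.4, 10.2 and 27.6 CPM in saline and of 42.6, 14.1 and 30.7 CPM under chronic morphine. Their differences were 0.38 ± 0.16 (adjusted p = 0.252), 0.33 ± 0.17 (adjusted p = 0.366) and 0.17 ± 0.10 (adjusted p = 0.41). Cry2 had medians of 137.8 and 138.9 CPM (0.06 ± 0.10). By edgeR, 0 of the 6 were called under chronic morphine in NAc, with 2 (Per2 and Cry1) at an unadjusted p under 0.05, where 1.69% of 18382 genes were called. At 24 h 0 were called, with 1 at an unadjusted p under 0.05 and 0.163% of genes called. At 2 weeks 0 were called, with none at that level and 0.00544% of genes called. Of all 18382 genes, 2783, 2209 and 1170 had an unadjusted p under 0.05 in these comparisons. DESeq2 called 1, 1 and 0 of the 6 repressors.

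Between the morphine groups of NAc, edgeR again called 0 of 6, at 24 h against chronic morphine (none at an unadjusted p under 0.05, 0.0762% of genes called) and at 2 weeks against chronic morphine (1 at an unadjusted p under 0.05, 1.89% of genes called). DESeq2 called none of the 6 in either. Of all 18382 genes, 1617 and 2350 had an unadjusted p under 0.05 by edgeR. The 1 repressor at that level was Per3, with medians of 30.7 CPM under chronic morphine and 26.1 CPM at 2 weeks (-0.30 ± 0.09, adjusted p = 0.101). Per3 passed with 2 surrogate variables (adjusted p = 0.0268) and with the striatal marker sum in the model (adjusted p = 0.0247).

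Among 20 other clock genes in NAc, Nr1d2, which encodes the repressor REV-ERBβ, rose under chronic morphine by 0.32 ± 0.05 (adjusted p = 0.00143) and Nfil3 fell by 0.70 ± 0.17 on the log2 scale (adjusted p = 0.0307). The list's median was 0.10, against -0.01 for all genes. At 24 h Nr1d2 was the 1 called clock gene (0.28 ± 0.05, adjusted p = 0.0146), and at 2 weeks edgeR and DESeq2 called 0, with 2 at an unadjusted p under 0.05. At 2 weeks against chronic morphine 3 were called, Nr1d2 (-0.20), Bhlhe40 (0.27) and Nfil3 (0.63). Of the 12 activity genes, Fos and Btg2 (-0.56 ± 0.13, adjusted p = 0.02) fell under chronic morphine, with a median of -0.51. At 24 h Fos alone of these was called (-1.05). Of the 10 glucocorticoid-induced genes edgeR called 0 under chronic morphine, with 4 at an unadjusted p under 0.05 and 2 called by DESeq2, and at 24 h Zbtb16 (1.33 ± 0.26, adjusted p = 0.0273) and Plin4 (2.09 ± 0.41, adjusted p = 0.0309) rose.

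The region itself was tested as a modifier. The chronic morphine difference in Per1 was higher in NAc than in PFC by 1.10 ± 0.27 on the log2 scale, which did not pass (edgeR adjusted p = 0.204), and that of Ciart by 0.84 ± 0.24 (adjusted p = 0.49). A difference between the regions in the Per1 response is thus not shown by this test, although Per1 was called in PFC and not in NAc. With the sample number as a replicate block, the Per1 value was 1.05 (adjusted p = 0.14) and the Ciart value 0.84 (adjusted p = 0.10). edgeR called 0 of 6 repressors for this difference, with 2 at an unadjusted p under 0.05 and 0.0311% of 19266 genes called. It called 0 for the 24 h difference (1 at an unadjusted p under 0.05, 0.0208% of genes called) and 0 for the 2 week difference (none at that level, 0.00519% of genes called). DESeq2 called none of the repressors in these 3. Of all 19266 genes, 811, 678 and 866 had an unadjusted p under 0.05 in the edgeR tests.

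No treatment-by-sex term was called for any repressor. A difference in level between the sexes was not tested. Testing all treatment-by-sex terms at once, edgeR called 0 of 6 in PFC, with Per1 at an unadjusted p of 0.00816 (adjusted p = 0.729), where 0% of genes were called (833 genes at an unadjusted p under 0.05, and 48 called by DESeq2). It called 0 of 6 in NAc, with Per3 alone under 0.05 unadjusted, where 0.0218% of genes were called. There 1743 of 18382 genes had an unadjusted p under 0.05. DESeq2 called none of the 6 in either region. In saline, all libraries labelled female were near 0 for Gm10263 and all labelled male expressed it. These tests compare each sex difference with that in saline, so sex and the Gm10263 division cannot be told apart in them. In PFC under chronic morphine Per1 ran from 100.3 to 184.7 CPM in the 3 libraries labelled female and from 64.3 to 106.5 CPM in the 5 labelled male. Both sexes lay below their saline libraries, which began at 194 CPM in females and 215 CPM in males. Of the 12 activity genes in PFC, edgeR called 0 for treatment by sex, with 9 at an unadjusted p under 0.05, and DESeq2 called 3. Fos was at an unadjusted p of 4.85e-04 (edgeR adjusted p = 0.322). The male minus female difference in the response was -1.02 for Fos and -0.86 for Per1 under chronic morphine. At 24 h these were -1.63 and -0.65, and at 2 weeks -0.36 and -0.05.

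No relation of Per1 with Fos was called in NAc. Within groups r was -0.58 in saline (n = 7, exact permutation p = 0.170), -0.67 under chronic morphine (n = 8, exact permutation p = 0.0734), 0.50 at 24 h (n = 9, exact permutation p = 0.170) and 0.02 at 2 weeks (n = 8, exact permutation p = 0.967). Spearman's rho was -0.57, -0.81, 0.45 and 0.07, and no adjusted p was under 0.05. Over deviations from group means, r of Per1 and Fos was -0.13 (n = 32, permutation p = 0.544, adjusted 0.621; rho = -0.11), and 0.05 without the 2 farthest libraries. With the striatal marker sum held constant, the partial r of Per1 and Fos was 0.22, a value that was not tested. The difference of r between the regions was not tested either. None of the 6 passed with Fos in NAc, where their r ran from -0.22 to -0.05.

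The hour proxy gave the called relations of NAc. Over 32 libraries r with the difference of Dbp and Arntl was 0.54 for Per1 (permutation p = 0.00344, adjusted 0.0103, rho = 0.55) and 0.56 for Ciart (adjusted 0.00843, rho = 0.55). It was 0.46 for Per3 (adjusted 0.0416, rho = 0.45) and 0.46 for Cry1 (adjusted 0.0423, rho = 0.46). Without the 2 farthest libraries these were 0.49, 0.63, 0.35 and 0.34. Without number 27 (n = 31) Per3 and Cry1 no longer passed (adjusted 0.0507 and 0.0565), which left 2 of the 4, Per1 (adjusted 0.0143) and Ciart (adjusted 0.0114). Cry2 (0.43, adjusted 0.0561) and Per2 (0.41, adjusted 0.0727) did not pass by r. By rho Cry2 passed (0.49, permutation adjusted p = 0.022) and Per2 did not (0.41, adjusted 0.0633). Without number 27, rho passed for Per1, Ciart and Cry2 (adjusted 0.0118, 0.0158 and 0.0339). It did not pass for Per3, Cry1 and Per2 (adjusted 0.0615, 0.0561 and 0.0863). None of these NAc relations passed by r when treatment-by-sex means were removed.

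The striatal marker sum moved with the repressors in NAc. Over deviations from group means in 32 libraries, its r was 0.82 for Per1 (rho = 0.93), 0.81 for Cry2 (0.86), 0.74 for Per2 (0.81), 0.73 for Cry1 (0.80), 0.63 for Ciart (0.72) and 0.40 for Per3 (0.44). All 6 passed by permutation, with an adjusted p of 0.0272 for Per3 and at most 9e-05 for the others, over 28 relations of the repressors with the marker sums, with Per1 and between regions. Without the 2 libraries farthest from the median marker sum, r was 0.88 for Per1 and between 0.40 and 0.84 for the others. The r of Dbp with this sum was 0.84 and that of Arntl 0.81, although the hour proxy takes these genes to peak at opposite times. The NAc libraries of numbers 6, 25, 2 and 23 had the lowest marker sums, 150, 182.5, 485 and 542 CPM, and their Per1 levels were 74.3, 52.2, 72.6 and 54.8 CPM. With the marker sum held constant, the partial r with the hour proxy was 0.44 for Per1 and 0.46 for Ciart. Of the 44 cell type markers edgeR called 0 under chronic morphine in NAc, with 8 at an unadjusted p under 0.05 and 0 called by DESeq2. At 24 h against saline it called 0, with 6 at an unadjusted p under 0.05, and DESeq2 called 2, both cortical projection neuron markers, whose list had a median of 1.29. The part of the tissue held by each punch in the NAc values was not tested beyond these values. In PFC the r of Per1 with the cortical marker sum was 0.25 (n = 30, permutation p = 0.269, adjusted 0.343; rho = 0.46, adjusted 0.0253) and 0.37 without the 2 farthest libraries.

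**Figure D5:**
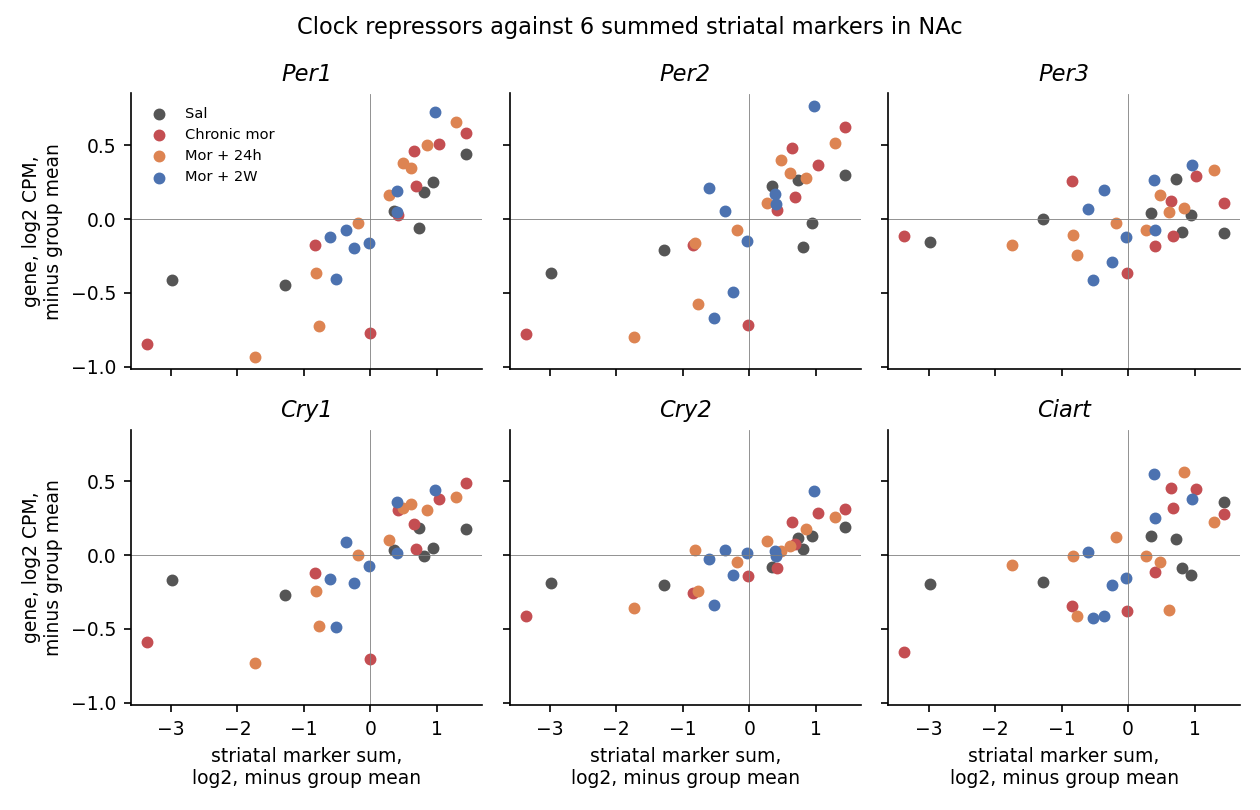
The 6 repressors in NAc libraries against the summed level of 6 striatal projection neuron markers, both as log2 CPM minus the mean of the treatment group. Points are libraries, coloured by treatment. The libraries farthest to the left lie below their group mean in Per1, and r runs from 0.40 for Per3 to 0.82 for Per1.

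The genes nearest Per1 in NAc, among 13104 genes over 32 libraries, were Ypel2 (r = 0.97), Anks1b, Dusp8, Fam102b and Mef2a (all 0.96). Dbp ranked 28 (0.95), Arntl 1207 (0.82) and Fos 7636 (-0.13). The nearest to Per3 were Pikfyve, Phf14 and Nipbl (0.82 to 0.83), to Cry1 Peli1, Arid4a and Top1 (0.95 to 0.96), to Cry2 Ppp2r2c, Grik5 and Jph3 (0.95), and to Ciart Tmem185a, Matk and Med16 (0.80 to 0.82). The repressors were also close to each other in NAc: Per1 had r = 0.94 with Cry1, 0.92 with Per2, 0.90 with Cry2, 0.71 with Ciart and 0.65 with Per3 (rho 0.61 to 0.88, permutation adjusted p at most 1.8e-04). Without the 2 libraries farthest from the median Per1 these ran from 0.66 to 0.92. In PFC without numbers 10 and 27, the r of Per1 was 0.74 with Per2, 0.61 with Ciart, 0.60 with Cry2, 0.43 with Cry1 and 0.31 with Per3. Per3 did not pass (permutation adjusted p = 0.211), the adjusted p of the others was at most 0.0407, rho ran from 0.25 to 0.73, and r without the 2 farthest libraries from 0.26 to 0.69. As in all these correlations, the libraries of a region share their punches, depth and normalization, and genes are not independent of each other.

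The same number occurs in both regions for 30 of the numbers, and whether it marks an animal is not stated. Across these numbers the r of a repressor's deviation in PFC with that in NAc was 0.57 for Ciart (rho = 0.55, permutation adjusted p = 0.0102), 0.53 for Cry2 (rho = 0.59, adjusted p = 0.0109) and 0.44 for Per1 (rho = 0.40, adjusted p = 0.0563, which did not pass). For Per3, Cry1 and Per2 it was 0.07, 0.03 and -0.002, and none passed. Without the 2 numbers farthest from the PFC median r was 0.60 for Ciart, 0.39 for Cry2 and 0.54 for Per1. Without numbers 10 and 27 the values were 0.50, 0.52 and 0.42, and 0.32 for Per2, 0.24 for Per3 and 0.05 for Cry1.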

How the data were processed

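RNA from mouse brain punches was sequenced as total RNA in paired-end reads of 75 bases, per the labels. The authors deposited raw read counts per Ensembl gene for all mouse libraries in 1 table. The submitters' processing notes name FastQC, cutadapt, STAR, RSEM, Trimmomatic and HISAT2 and the build GRCm38, with no roles. The counter, annotation and strand setting are not given in the sources used here. The table also lists reads that met no gene (median 5.43% of a library), ambiguous reads (0.83%) and multiply aligned reads (14.7%), which were left out. Of 46078 gene identifiers 45143 were matched to a symbol, and gene positions and exon lengths come from GENCODE M21. The 189 rat libraries of the series were not used here.

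Counts were tested with edgeR 4.0.16 in R 4.3.3: TMM scaling, a filter on low counts by treatment and sex, treatment-by-sex cell means, contrasts averaged over the sexes, the robust quasi-likelihood test, and Benjamini-Hochberg adjustment over all genes tested. A gene was called at an adjusted p under 0.05. Levels are CPM on TMM-scaled library sizes; log2 CPM uses a prior count of 2. On simulated counts 68.5% of 2-fold changes were recovered in PFC (17620 genes) and 87.5% in NAc (18023 genes). Correlations used deviations of log2 CPM from group means, tested by permuting libraries within groups (exact within 1 group, otherwise 100000 resamples; scipy 1.17.1), and Benjamini-Hochberg adjustment over 8, 24 or 28 relations. No 2 libraries held identical values. Same-numbered PFC and NAc libraries were compared over all genes for 30 numbers: their deviations correlated at 0.01 to 0.35 (median 0.18), over 0.1 in 24 pairs. Of these numbers, 18 had their PFC library correlate best with their own NAc library among those of the same treatment and sex. The main fits did not pair the samples because the labels do not name an animal. If the numbers do mark animals, the main region comparisons treat paired libraries as independent.

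Named genes follow a rule: all 6 repressors with Fos, Dbp and Arntl, up to 4 called genes per list with the smallest p, the 5 genes nearest Per1 and the 3 nearest each other repressor. Those nearest Per2 in NAc are not reported here. The gene lists hold 20 other clock genes, 12 activity genes, 10 glucocorticoid-induced genes and 44 cell type markers. The repressors, lists and tests were chosen with earlier results of these data known. Alternatives were median-of-ratios scaling, no filter, DESeq2 1.42.0, no sex term, 2 surrogate variables (sva 3.50.0), Fos and hour-proxy covariates, each library left out and a replicate block. Added after seeing the data were the Gm10263 division, the marker sum, and leaving out numbers 10 and 27, or numbers 22 to 24 at 24 h, and the comparison within males.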

Additional observations from a re-analysis of the deposited data

Results flagged for a closer look

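In 56 groups of 4 to 10 libraries (the 6 repressors and Fos in 8 groups), the gap of the highest or lowest library to its neighbour was compared with the range of the group. Chance alone marks about 1 in 20 such groups, and 3 were marked. Per2 in PFC at 2 weeks was at 0.0 CPM in the library of number 10, where the next lowest library held 49.1 CPM. Per3 in the same library was at 0.0 CPM, where the next held 31.6 CPM. That library held 5182601 gene counts and 10563 genes with a count, and its part in these values was not tested. Fos in PFC under chronic morphine was at 36.6 CPM in the library of number 26, where the next highest held 25.2 CPM. This library also had the highest Per1 of its group, 184.7 CPM.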

How the results depend on the processing

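Per1 in PFC kept its direction and call under chronic morphine in every library left out in turn (-1.25 to -1.02 on the log2 scale), and so did 2 weeks against chronic morphine (0.83 to 1.06). The other Per1 ranges with 1 library left out were -0.60 to -0.44 (PFC, 24 h), -0.25 to -0.10 (PFC, 2 weeks), 0.49 to 0.72 (PFC, 24 h against chronic), -0.14 to 0.14 (NAc, chronic), 0.01 to 0.21 (NAc, 24 h), 0.07 to 0.28 (NAc, 2 weeks), -0.02 to 0.25 (NAc, 24 h against chronic) and 0.04 to 0.31 (NAc, 2 weeks against chronic).
With Fos in the model, Per1 in PFC was 0.065 under chronic morphine, 0.25 at 24 h and -0.10 at 2 weeks against chronic morphine. With Fos and the hour proxy these were 0.07, 0.25 and -0.12, and with Fos and the marker sum -0.079, 0.15 and 0.062. With the Gm10263 division the first and the last were -0.83 and 0.35, an adjustment that rests on the 24 h males, where alone the division varied within a treatment and sex. In all 4 settings the called repressors of both comparisons went from 1 to 0, and over all genes the calls went from 0.417% to 0.0612% with the Gm10263 division and to 0 in the 3 settings with Fos, and from 0.813% to 0 in all 4.
In NAc, where Per1 passed in no comparison of the chosen fit, its sign changed at 24 h with 2 surrogate variables (-0.17), Fos (-0.28), Fos and the hour proxy (-0.40), the marker sum (-0.09) and Fos with the marker sum (-0.022). It changed at 2 weeks with the Gm10263 division (-0.25), the marker sum (-0.06) and Fos with the marker sum (-0.064). With the Gm10263 division it was 0.39 under chronic morphine, -0.054 at 24 h against chronic morphine and -0.64 at 2 weeks against chronic morphine. In NAc too the values with this division rest on the 24 h males. With 2 surrogate variables Per1 passed under chronic morphine (-0.29, adjusted p = 0.0128) and at 2 weeks against chronic morphine (0.34, adjusted p = 0.00111).
DESeq2 called 1 repressor where edgeR called 0 for 24 h against chronic morphine in PFC (Per1, 0.58) and for chronic morphine and 24 h in NAc, where it called 0.195%, 3.74% and 0.908% of all genes and edgeR 0.0278%, 1.69% and 0.163%. With 2 surrogate variables 2, 1 and 2 repressors were called in NAc under chronic morphine, at 24 h, and at 2 weeks against chronic morphine, and the marker sum gave 1 in the last. The surrogate variable fits called 4.29%, 0.99% and 6.33% of all genes in place of 1.69%, 0.163% and 1.89%, and the marker sum 4.65% in the last. Leaving out 1 library moved a count from 0 to 1 for 24 h against chronic morphine in PFC (number 26) and for chronic morphine in NAc (number 25). Without numbers 10 and 27, 5 repressors were called between the regions in place of 3, and 41.6% of all genes in place of 35.8%. The within-group r of Per1 and Fos was 0.32 under chronic morphine without the 2 farthest libraries and 0.64 at 24 h without numbers 22 to 24, and called relations went from 10 to 3 with treatment-by-sex means removed. The cause of these changes was not tested.
With the number as a replicate block, the regional difference in the Per1 response was 1.05 (adjusted p = 0.14), and no count of called repressors changed. Of 30 numbers, 18 had their PFC library correlate best with the NAc library of the same number, a hint from the data and not the design. Of 720 other values, 89 changed sign with neither value called.
Depth limits the PFC library of number 10 most, and Ciart, the repressor with the lowest CPM.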
